A study of Solanum lycopersicum with 21 samples.

Results

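BP178, a synthetic peptide tested as a plant defense elicitor, was compared directly with 3 hormones, namely ethylene, jasmonic acid (JA) and salicylic acid (SA), in tomato leaves at 24 h after treatment. The contrast set the 3 arrays of BP178-sprayed plants against the mean of the SA, JA and ethylene group means, so that each hormone weighed the same, and the water-sprayed controls did not enter it. It used 12 of the 21 arrays of the series, 3 BP178 arrays and 9 hormone arrays, and covered all 67795 probe sets of the GeneChip Tomato Gene ST array. A probe set is a group of short probes that read the same transcript, and its deposited value is a log2 intensity, so a difference of 1 is a 2-fold change.

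All plants were of the cultivar Rio Grande. BP178 was sprayed at 125 µM, and SA and JA at 2.5 mM each. Ethylene was released from ethephon at 1 mM with phosphate buffer at 2.5 mM, which the methods place in a sealed chamber, whereas the sample labels describe sprayed leaves. No enclosed control is described, so the chamber and its reagents cannot be told apart from ethylene. BP178 joins the antimicrobial peptide BP100 to a part of magainin and ends in a signal that retains proteins in the endoplasmic reticulum. The arrays were labelled as biological replicates, and each held RNA pooled from 10 plants, so the p values measure the spread between such pools. The 3 water arrays of the same experiment are given as levels only, to show where leaves without treatment lay.

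The induced defense of plants runs mainly through pathways named after these hormones. SA acts through NPR1 and switches on pathogenesis-related (PR) proteins, mostly against pathogens that feed on living tissue. JA acts by removing the JAZ repressors, which frees factors that switch on its own synthesis and the proteinase inhibitors and oxidases that make leaves hard to digest. Ethylene silences a family of receptors that otherwise hold the pathway off, and ethylene response factors (ERF) carry the signal to defense genes. WRKY and NAC proteins are transcription factor families that respond to these hormones and to pathogens. SA and JA are known to oppose each other at many genes, which is why each of the 3 pairwise differences stands beside the mean contrast here.

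Transcripts of green leaf tissue were high in every group. CAB4, a chlorophyll-binding protein, had group means between 11.92 and 12.54, and psaD, a photosystem I subunit, between 12.57 and 12.80. Of the 6 trichome markers, AT1, AT2, AT3, MTS2 and NDPS1 had group means between 1.91 and 3.13, near the bottom of the scale. The remaining marker MTS1, a monoterpene synthase of trichomes, was at 4.26, 6.02 and 4.94 on the JA arrays and between 1.83 and 2.43 on all others. It was called lower than after JA, with a difference of -2.99 ± 0.32 (SE). What part trichomes had in the JA comparison was not tested. Of the 3 sucrose transporters used as phloem markers, SUT1 was 0.39 ± 0.09 (SE) above the hormone mean, short of the minimum difference, and SUT2 and SUT4 differed by -0.10 and -0.07. In leaf RNA, fewer cells of a type and less RNA per cell cannot be told apart. None of the 12 arrays was left out: array medians ran from 2.63 to 2.85, and each array correlated with its own group at 0.979 to 0.986 and with the other groups at 0.951 to 0.965. Ethylene replicate 3 had the lowest correlation with its own group (0.979), and the lowest weight (0.598) when arrays were weighted in the fit. The values hold no counts, so the number of arrays sets the precision.

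A probe set was called at an adjusted p below 0.05 (limma, Benjamini-Hochberg over all probe sets, two-sided) and a log2 difference of at least 1. BP178 differed from the hormone mean at 1088 probe sets, which is 1.60% of all tested. Each group had n = 3 arrays, and the standard errors (SE) come from the spread within all 4 groups. It was higher at 469 (0.692%) and lower at 619 (0.913%). The pairwise counts show how unequal the hormones were. BP178 differed from SA at 2607 probe sets (3.85%), 1327 higher (1.96%) and 1280 lower (1.89%), and from JA at 1851 (2.73%), 1025 higher (1.51%) and 826 lower (1.22%). Ethylene was the nearest by this count, with 975 (1.44%), 465 higher (0.686%) and 510 lower (0.752%). The 3 pairwise comparisons share the BP178 arrays, and the hormones differed among themselves at 9518 probe sets (14.0%, moderated F test, adjusted p below 0.05). The median difference over all probe sets was -0.0161 for the mean contrast, close to 0.

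**Figure D1:**
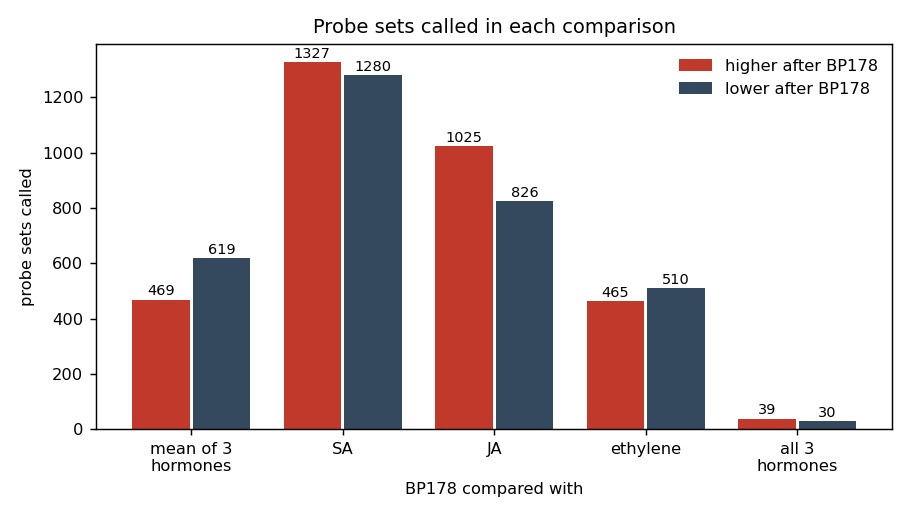
Number of probe sets called higher (red) or lower (dark) after BP178, for the comparison with the mean of the 3 hormones, with each hormone, and for probe sets outside all 3 hormone groups. The SA comparison gave 1327 and 1280 calls and the test against all 3 hormones 39 and 30.

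Many calls of the mean contrast rested on unlike hormone levels. Among the 619 lower probe sets, the hormones differed by the F test at 576, the hormone means spread wider than the contrast itself at 507, and BP178 lay between the hormone means at 237. SA was the farthest hormone at 345 of them, JA at 175 and ethylene at 99. Among the 469 higher probe sets the hormones differed at 315, BP178 lay between them at 33, and JA was the farthest at 218, SA at 166 and ethylene at 85. The 3 BP178 arrays lay above all 9 hormone arrays at 306 of the 469, and below all 9 at 184 of the 619. Over all probe sets these shares were 1.96% above and 1.04% below.

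BP178 was therefore also tested against all 3 hormones at the same time, where each pairwise difference had to have the same sign and the weakest of the 3 had to pass. BP178 was above every hormone at 39 probe sets (0.0575%) and below every hormone at 30 (0.0443%), 69 in all (0.102%). In both directions the arrays did not overlap at any of them. Leaving out any single array kept 11 of the 39 and 14 of the 30, and without BP178 replicate 1, 2 or 3 the total was 33, 37 and 36. The BP178 arrays enter all 3 differences and a hormone array only its own, so a larger loss without a BP178 array is built into this test. The mean contrast was firmer, with 311 of 469 and 460 of 619 calls kept without any single array.

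**Figure D2:**
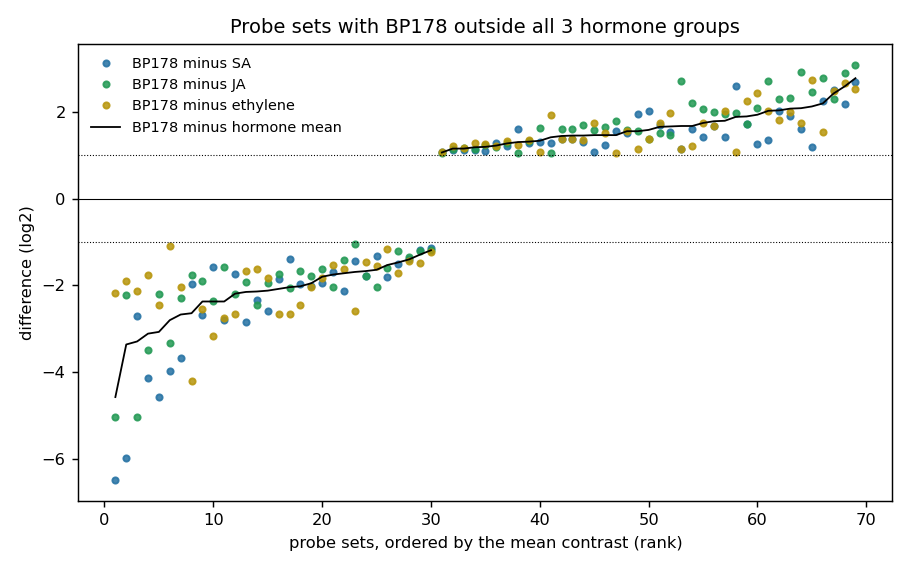
Log2 differences between BP178 and SA (blue), JA (green) and ethylene (yellow) for the 69 probe sets where BP178 lay outside all 3 hormone groups, ordered by the mean contrast (black line). The dotted lines mark the minimum difference of 1, and the most negative contrast is -4.57 and the most positive 2.77.

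The untreated level separates these calls. At 437 of the 469 higher probe sets BP178 was within 1 log2 unit of the water mean, as it was at 99.7% of all probe sets, and at 313 the hormone mean was at least 1 below water. BP178 itself was at least 1 above water at 26 of the 469, and at least 1 below water at 6. The lower set had the same form. BP178 was within 1 of water at 592 of the 619, at least 1 below it at 3 and at least 1 above it at 24, while the hormone mean was at least 1 above water at 551. Over all 67795 probe sets, BP178 was at least 1 above water at 158 and at least 1 below it at 51. The hormone mean was at least 1 above water at 950 of them and at least 1 below it at 630. The median levels of the higher set were 6.52 after BP178, 5.16 for the hormone mean and 6.45 for water, and those of the lower set were 3.76, 5.35 and 3.55.

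**Figure D3:**
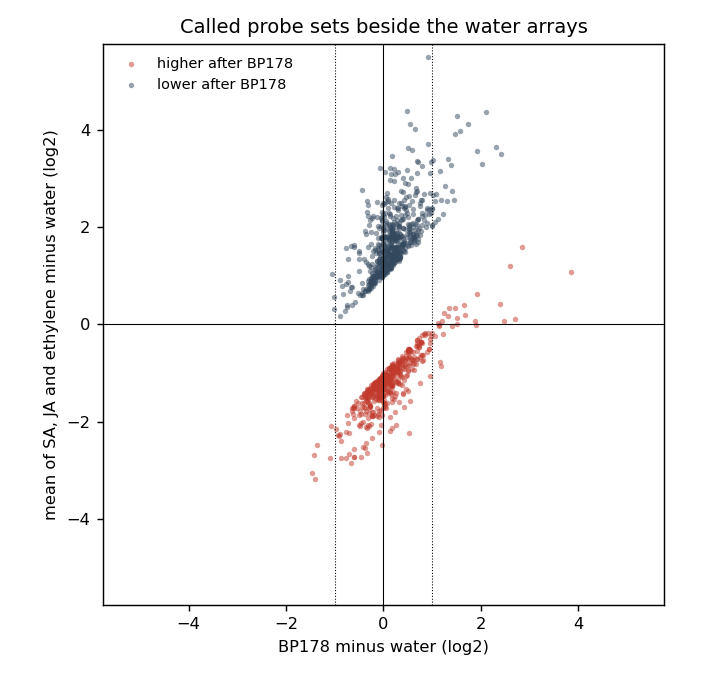
Position of the 1088 called probe sets relative to water, with BP178 minus water on the horizontal axis and the mean of the 3 hormones minus water on the vertical axis, both in log2 units. Red points were higher after BP178 and dark points lower, the dotted lines mark 1 unit, and 437 of the 469 red and 592 of the 619 dark points lie between them.

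A small group of defense transcripts stood above the hormone mean and above water. Most are known by descriptions from the study's lists, which were chosen on these same arrays against water, so their height over water is no independent evidence. The lipoxygenase Solyc08g029000, of the enzyme family that starts oxylipin and jasmonate synthesis, was at 8.01, 7.14 and 6.77 after BP178. SA gave 4.20, 3.97 and 3.49, JA 3.8, 3.73 and 4.58, ethylene 5.97, 5.82 and 5.06, and water 4.22, 2.58 and 3.54. Every BP178 array lay above every other array, and ethylene was the nearest group. The difference from the hormone mean was 2.79 ± 0.28 (SE), or 6.92-fold (limma adjusted p = 5.87e-05), with 3.42 over SA, 3.27 over JA and 1.69 over ethylene, and the test against all 3 hormones was not passed (adjusted p = 0.12).

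A receptor-like kinase with cysteine-rich repeats, Solyc12g005720, is one of the membrane kinases that sense outside signals. It was at 5.25, 5.42 and 4.77 after BP178. The 9 hormone arrays lay between 2.04 and 3.30, and the water arrays at 2.97, 2.14 and 2.23. It exceeded the hormone mean by 2.58 ± 0.25 (SE), 5.97-fold, and all 3 hormones (limma adjusted p = 0.0149), and it lost the latter call without BP178 replicate 1 or 2. Solyc09g090980, described as the major allergen Mal d 1 and so a member of the PR10 family of small ligand-binding proteins, behaved alike. It was at 4.87, 4.64 and 4.32 after BP178, between 1.58 and 2.82 on the hormone arrays, and at 2.08, 1.84 and 2.47 after water. Its difference was 2.42 ± 0.21 (SE), 5.35-fold, with near-equal distances of 2.49, 2.28 and 2.48 from SA, JA and ethylene, and it kept its place above all 3 hormones (adjusted p = 0.00452) without any single array. Its SA, JA, ethylene and water means of 2.12, 2.33, 2.13 and 2.13 lay below every median of the 12 arrays (2.63 to 2.85). So near the bottom of the scale, the near-equal distances need not show like effects of the hormones, and the fold is uncertain. The JA and ethylene means of Solyc12g005720, at 2.26 and 2.48, also lay below those medians.

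Subtilases are serine proteases, several of which are PR proteins in tomato. Solyc08g079900 was at 6.60, 6.52 and 6.02 after BP178 against 3.53 to 5.41 on the hormone arrays, a difference of 1.96 ± 0.24 (SE). The related P69B was at 6.09, 6.70 and 6.26 and exceeded the hormone mean by 1.80 ± 0.24 (SE). In both, the distance from ethylene was the smallest, 1.36 and 0.95, and neither passed the test against all 3 hormones. Near-identical P69 copies may share probes, so these values are not independent. The acidic chitinase Solyc05g050130, of the enzymes that cut the chitin of fungal cell walls, exceeded the hormone mean by 1.37 ± 0.21 (SE), most over JA (2.04) and least over SA (0.79). The non-specific lipid-transfer protein Solyc08g067550, of the PR14 family, did so by 1.30 ± 0.18 (SE), most over ethylene (2.07) and least over SA (0.63). GGPS1, which makes the diterpene and carotenoid precursor, was at 4.50, 4.15 and 3.52 after BP178 and 2.33, 2.56 and 2.30 after water, 1.26 ± 0.23 (SE) above the hormone mean. The SA arrays, at 3.01, 3.94 and 3.10, overlapped BP178, and the difference of 0.71 from SA was not called.

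**Figure D4:**
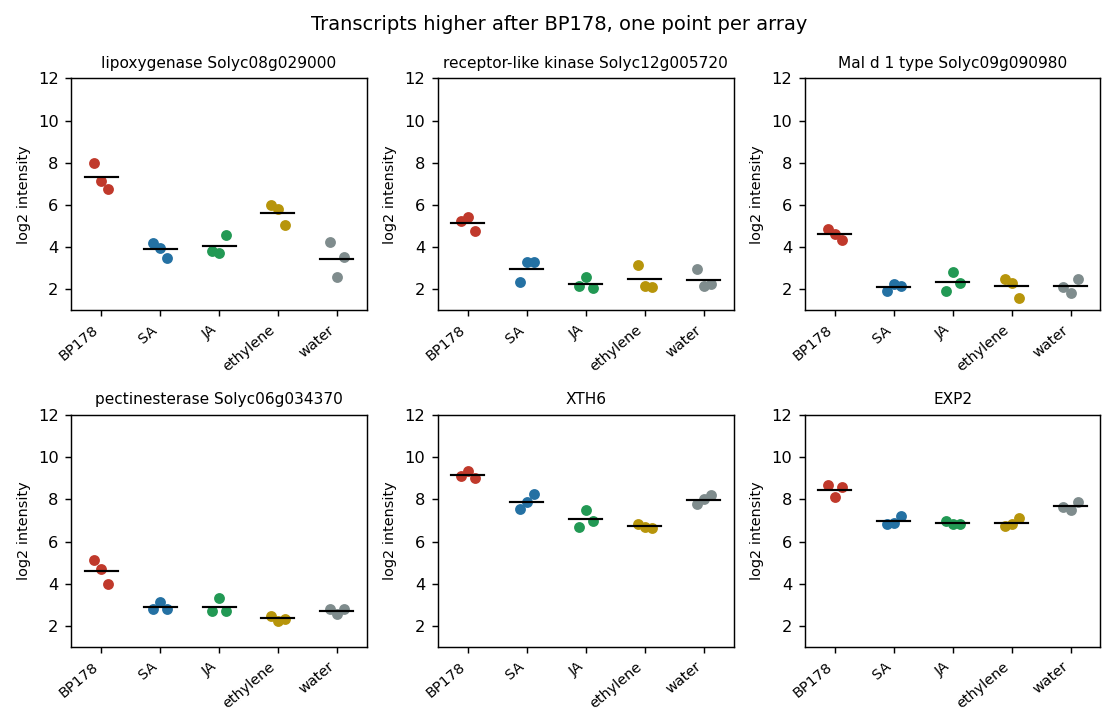
Log2 intensity on each array (points) and group mean (line) for 6 transcripts higher after BP178 than after the hormones. The receptor-like kinase, the Mal d 1 type protein and the pectinesterase had hormone arrays near water, and so had the lipoxygenase after SA and JA but not after ethylene, at 5.06 to 5.97. In contrast, XTH6 and EXP2 were lower after JA and ethylene than after water, and EXP2 was also lower after SA.

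Several expansin and XTH genes were higher after BP178. Expansins slide cellulose and hemicellulose apart, and xyloglucan endotransglucosylases (XTH) cut and rejoin hemicellulose chains, and both act in growing cells. They belong to a list of cell wall loosening enzymes that also holds enzymes of pectin. Of its 17 members found by gene symbol, 7 were higher after BP178, 0 were lower, and 3 were above all 3 hormones. Their median difference was 0.651, against -0.0161 for all probe sets. The 7 members found through the study's descriptions, which are not independent evidence, had 2 higher, 3 lower and a median of -0.963. The 2 higher ones were the pectinesterase and the polygalacturonase described below. The expansin-like protein Solyc08g077330 was at 5.95, 6.49 and 6.29 after BP178, above water at 5.10, 3.95 and 4.97 and below every hormone array, the highest being SA at 9.70, 10.10 and 9.88. Its contrast was -2.39 ± 0.25 (SE), and the other lower members were the xylanase inhibitor Solyc01g080010 (-1.59) and the blight-associated protein Solyc08g067390 (-1.19), both farthest from SA. These 2 were matched by words of their descriptions and are not named as expansins or XTH. Of the 950 probe sets with a symbol other than a locus number, 2.84% were higher and 4.63% lower.

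EXP2, an expansin, was at 8.67, 8.12 and 8.59 after BP178, at 6.81, 6.87 and 7.19 after SA, at 6.98, 6.82 and 6.83 after JA and at 6.76, 6.85 and 7.10 after ethylene. The hormone arrays lay close together and below water, which was at 7.63, 7.50 and 7.89. The difference was 1.55 ± 0.13 (SE), 2.92-fold (limma adjusted p = 2.19e-05), and BP178 stayed above all 3 hormones without any single array. XTH6, which the study's lists annotate as hydrolase 9, was at 9.09, 9.35 and 9.0 after BP178 and at 7.78, 8.00 and 8.19 after water. It was between 7.56 and 8.24 after SA, 6.71 and 7.51 after JA and 6.64 and 6.83 after ethylene, so the distance ran from 1.26 over SA to 2.43 over ethylene. Its call above all 3 hormones (adjusted p = 0.0406) was lost without any of 9 of the 12 arrays.

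The other members found by symbol and higher than the hormone mean differed in which hormone they left behind. The expansin exp12 was 1.96 ± 0.15 (SE) above the mean, by 2.98 over ethylene and 1.01 over SA, and XTH7 was 1.52 ± 0.13 (SE) above it, by 2.48 over ethylene and 0.63 over JA. EXPA4 was farthest from JA (1.84) and EXPA5 and exp11 had mean differences of 1.23 and 1.30. exp11 passed against all 3 hormones (adjusted p = 0.0244), and lost that call without BP178 replicate 1 or 3, JA replicate 2 or 3, or ethylene replicate 2. The 10 remaining members, among them EXP1, EXPA3, PG2 and XTH3 at group means under 3.1, were not called. XTH16 averaged out, 1.68 above SA and 1.35 below JA, for a mean contrast of 0.01. XTH9, under that symbol, was 1.82 below ethylene.

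The pectinesterase Solyc06g034370 and the polygalacturonase Solyc04g008230, enzymes that modify and cut pectin, were both above all 3 hormones, on opposite sides of water. The pectinesterase was at 5.13, 4.70 and 4.0 after BP178 and at 2.82, 2.56 and 2.79 after water, with a difference of 1.89 ± 0.20 (SE) from the hormone mean, and its call above all 3 hormones was lost without any of 6 arrays. Its SA, JA and ethylene means of 2.9, 2.9 and 2.35 were near the bottom of the scale. The polygalacturonase was at 5.55, 4.83 and 4.87 after BP178, at 6.32, 6.80 and 6.36 after water and between 2.83 and 3.64 on the hormone arrays. It exceeded the hormones by 1.78 ± 0.17 (SE) while lying below water.

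Other called genes with a symbol, named after their values were seen, mostly lay near water as well. Cel8, an endoglucanase, was 1.77 above the hormone mean with a group mean of 9.12 after BP178 beside 7.23 (SA), 6.71 (JA), 8.09 (ethylene) and 9.38 (water). The beta-galactosidases TBG6 and TBG5 were 1.56 and 1.18 above it, and the ammonium transporters AMT1-2 and AMT1-3 were 1.21 and 1.08 above it. TFHS1 was above all 3 hormones, by 1.41 over SA, 1.94 over JA and 2.02 over ethylene, at 8.59 beside a water mean of 8.53, and lost this call without any of 5 arrays. The gibberellin oxidase 20ox-1 separated the hormones, since BP178 exceeded SA by 2.47 and JA by 2.88 and ethylene by only 0.16. The chalcone synthase CHS2, at the entry of flavonoid synthesis, was at 8.02, 7.51 and 8.20 after BP178 and 1.09 ± 0.20 (SE) above the hormone mean, with water at 8.28, 8.38 and 8.65.

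Most of the largest differences on the higher side lay in genes known here only by a locus number. LOC101259314 was at 7.27, 7.29 and 7.44 after BP178 and between 4.01 and 5.55 on the hormone arrays, 2.77 ± 0.22 (SE) above their mean, with water at 6.92, 6.97 and 6.55. LOC101247117 was at 8.63, 8.66 and 8.62, above the hormone mean by 2.19 ± 0.16 (SE), and at 9.38, 9.41 and 9.07 after water. LOC543656 was 2.32 ± 0.20 (SE) above it, by 3.73 over ethylene and 1.17 over JA. LOC101254427, LOC101257101 and LOC101250126 were 2.44, 2.32 and 2.30 above it. LOC101249176 had 2 probe sets on the array, with mean contrasts of 2.31 and 2.25, and both were farthest from SA (4.52 and 4.49). In all of these, BP178 was nearer to water than to any hormone mean.

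On the lower side, transcription factors of hormone-responsive families stood among the largest differences. Solyc04g071770, described as ethylene-responsive transcription factor 2a, had the most negative contrast of all. It was at 4.13, 4.45 and 4.29 after BP178 and at 10.58, 11.05 and 10.68 after SA. JA gave 9.30, 9.17 and 9.48, ethylene 6.93, 6.06 and 6.42, and water 3.10, 2.67 and 4.34. The BP178 arrays lay in the range of the water arrays or just above it, and SA, not ethylene, gave the highest level. The contrast was -4.57 ± 0.17 (SE), a 23.7-fold higher hormone mean (limma adjusted p = 3.08e-08), and it held against all 3 hormones without any single array (adjusted p = 0.00153).

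NAC1 was at 6.88, 6.59 and 6.55 after BP178, at 10.73, 10.96 and 10.67 after SA, at 10.07, 10.17 and 10.22 after JA and at 8.40, 8.38 and 8.47 after ethylene. Its group ranges did not touch, and water was at 6.07, 6.27 and 6.17. The contrast was -3.11 ± 0.10 (SE), or 8.66-fold (adjusted p = 2.12e-08), with differences of -4.12, -3.48 and -1.75. The NAC factor Solyc07g063410 was lower by a like amount, -3.29 ± 0.23 (SE), but was highest after JA at 9.77, 9.61 and 9.82. Its call against all 3 hormones was lost without BP178 replicate 3. The NAC factors Solyc05g007770 and Solyc04g005610 were 2.44 and 2.08 below the mean, the former by only 0.89 below SA. Solyc05g007770 was at 3.73, 4.43 and 4.49 after BP178, above water at 2.67, 2.99 and 2.58.

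The WRKY factors gave the same picture. Solyc09g014990 was at 4.46, 4.74 and 4.46 after BP178, between 7.97 and 8.61 after SA, 6.5 and 7.25 after JA and 6.29 and 7.03 after ethylene, and at 4.02, 3.52 and 4.06 after water. Its contrast was -2.67 ± 0.19 (SE) (adjusted p = 5.58e-06). Solyc06g066370 at -2.12 ± 0.16 (SE) and Solyc02g032950 at -2.80 ± 0.14 (SE) were also below all 3 hormones, though the latter lay only 1.10 below ethylene and lost the call without any of 7 arrays. Solyc03g116890 was at 2.60, 2.72 and 2.60 after BP178 and as high as 7.55, 8.05 and 7.55 after JA, with a contrast of -3.27 ± 0.31 (SE) that did not pass against all 3 hormones (adjusted p = 0.0748). By symbol, WRKY3 (-1.44) and WRKYIId-4 (-1.31) of 5 WRKY genes were lower and 0 higher. Of all probe sets with a symbol other than a locus number, 4.63% were lower and 2.84% higher. WRKY72 and WRKYIId-2 differed by 0.08 and -0.20, and WRKYIIe-1 by -0.99, just short of the minimum.

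**Figure D5:**
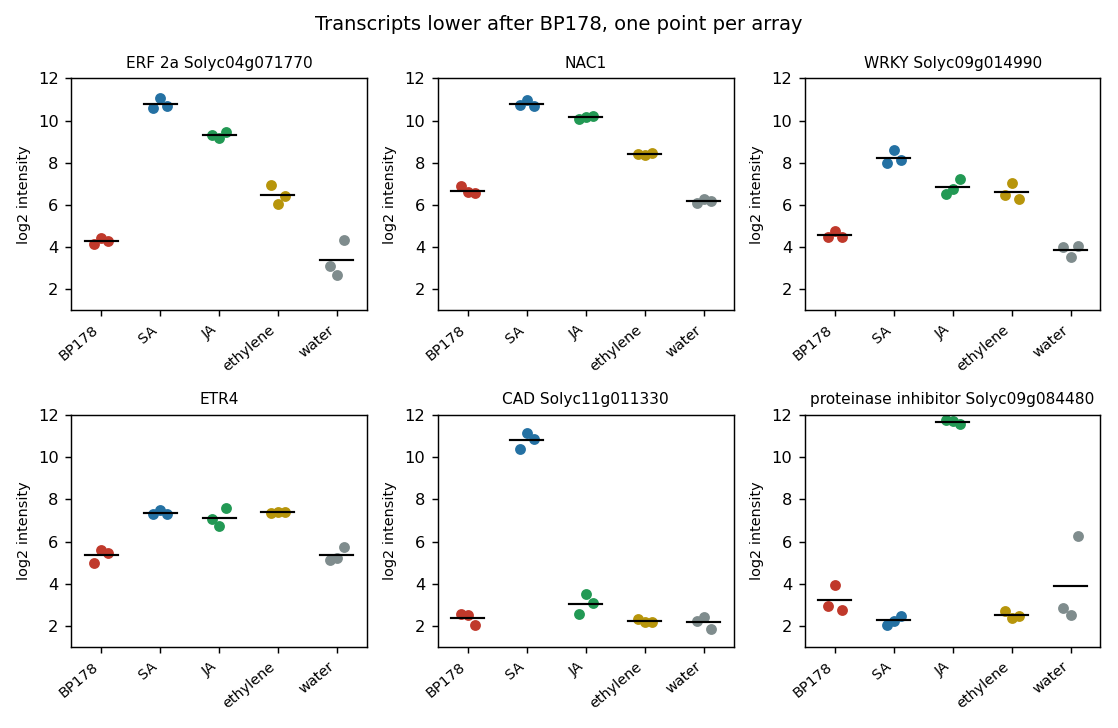
Log2 intensity on each array (points) and group mean (line) for 6 transcripts lower after BP178 than the hormone mean. The ERF, NAC1, WRKY and ETR4 transcripts were raised above BP178 in all 3 hormone groups, whereas the cinnamyl alcohol dehydrogenase (CAD) was high after SA alone at 10.38 to 11.14 and the proteinase inhibitor after JA alone at 11.56 to 11.76.

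Genes of ethylene perception and signalling followed. ETR4, an ethylene receptor, was at 4.96, 5.62 and 5.47 after BP178 and 5.12, 5.24 and 5.75 after water, which overlap. It was at 7.30, 7.50 and 7.31 after SA, at 7.08, 6.76 and 7.57 after JA and at 7.36, 7.40 and 7.41 after ethylene. All 3 hormone groups thus reached about the same level, and the contrast was -1.95 ± 0.17 (SE), 3.86-fold (limma adjusted p = 1.76e-05), kept against all 3 hormones without any single array. EBF1, an F-box protein that removes the EIN3-type factors of the pathway, was 1.39 ± 0.13 (SE) lower than the hormone mean, mainly through ethylene, which reached 10.17, 10.39 and 10.47 against 7.21, 7.80 and 7.76 after BP178. Of 15 genes of the list, these 2 were lower and 0 higher, beside 4.63% and 2.84% of all probe sets with a symbol other than a locus number. In the comparison with ethylene alone 4 were lower, beside 0.752% of all probe sets. The other pair were the receptor ETR6 (-1.57) and the factor EIL1 (-1.33). ETR1, ETR5, CTR3, EIN2 and EBF2 were not called in any of these comparisons.

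The ERF family was divided. Solyc09g089930, described as factor 1a, was at 4.72, 5.10 and 5.34 after BP178, above water at 3.25, 3.51 and 3.18. It was nevertheless below every hormone array, by 1.57 against SA, 2.37 against JA and 3.16 against ethylene, with a contrast of -2.37 ± 0.15 (SE). Solyc12g056590 was 2.69 ± 0.21 (SE) and Solyc02g077370 1.87 ± 0.18 (SE) below the mean, both farthest from SA. By symbol 1 of 10 ERF genes was lower, beside 4.63% of all probe sets with a symbol other than a locus number. It was a probe set of ERF1 at -1.32 ± 0.30 (SE) that was 2.98 below ethylene. The other probe set of that symbol was dim and differed by 0.15. ERF2 was 2.23 below SA and ERF4 1.60 below ethylene, and neither was called in the mean contrast. DREB3, of the same superfamily, was below all 3 hormones by 1.18, 1.2 and 1.49, a call lost without BP178 replicate 2 or 3.

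Enzymes and stress proteins below all 3 hormones included several roles. The UDP-glucosyltransferase Solyc01g107780, of enzymes that attach sugar to small molecules, was at 5.08, 5.34 and 5.43 after BP178 and between 11.11 and 11.43 after SA, with a contrast of -3.36 ± 0.16 (SE). The FAD-binding monooxygenase Solyc12g013690 was at 3.74, 4.05 and 3.72 against 5.87 to 8.52 on the hormone arrays, at -3.07 ± 0.13 (SE). The hydroxycinnamoyl transferase Solyc05g052670 was highest after ethylene, at 8.83, 8.89 and 8.88, and 2.64 ± 0.16 (SE) lower after BP178. The late embryogenesis abundant protein Solyc06g009140, of a family known from drying tissue, was 2.37 ± 0.16 (SE) lower and the methionine sulfoxide reductase Solyc03g111720 was also 2.37 lower. HGO, which breaks down homogentisate, was at 5.66, 5.73 and 5.18 after BP178 and 1.64 ± 0.17 (SE) lower, with water at 5.17, 5.73 and 5.67. Its call against all 3 hormones was lost without any of 7 arrays.

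Among signalling kinases named after their values were seen, the MAP kinase MPK3 was 1.15 and the MAP kinase kinases MKK4 and MKK2 were 1.18 and 1.06 below the hormone mean. MKK4 was 2.03 below JA and 0.22 below SA, and MKK2 was 2.05 below SA and 0.08 below ethylene. Large differences were also seen outside the kinases. The cytochrome P450 Solyc06g074420 was at 2.11, 2.03 and 2.16 after BP178 and 3.10 ± 0.27 (SE) lower, CZFP1, a zinc-finger protein, was 2.85 ± 0.21 (SE) lower, and Solyc01g107390, a GH3 enzyme that conjugates hormones to amino acids, was 2.84 ± 0.32 (SE) lower. None of these passed against all 3 hormones, ethylene being the nearest group in each.

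Several families found through the words of the study's descriptions were lower in most of their members, namely 11 of 16 WRKY, 7 of 8 NAC, 8 of 14 ERF, 4 of 6 MYB, 25 of 30 glycosyltransferases, 13 of 18 glutathione S-transferases, 7 of 13 cytochrome P450s, 6 of 10 ABC transporters and 7 of 11 phenylpropanoid enzymes. These descriptions cover 770 probe sets chosen by the study, from these arrays, as responding to SA, BP178 or flg15, and the JA and ethylene lists were not used here. The counts are therefore not independent evidence, and 43.6% of all 770 were lower and 3.51% higher. Other families were lower in few of theirs, namely 8 of 31 receptor-like kinases, 2 of 9 heat shock proteins, 2 of 7 peroxidases and 2 of 6 subtilases. Of 8 PR1, PR2 and PR5 proteins, 6 chitinases and 7 lipid-transfer proteins 0 were lower. Against SA alone 30 of the 30 glycosyltransferases, 18 of the 18 glutathione S-transferases and 10 of the 10 ABC transporters were lower, beside 75.3% of the 770 described and 1.89% of all probe sets. Against ethylene 2, 1 and 0 of them were, beside 8.70% of the 770. Most descriptions come from the SA list, so a high share against SA is built into them.

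Each pairwise difference had leaders of its own. Against SA, the cinnamyl alcohol dehydrogenase Solyc11g011330, an enzyme of lignin synthesis, was at 2.58, 2.50 and 2.02 after BP178 and at 10.38, 11.14 and 10.87 after SA, a difference of -8.43 ± 0.24 (SE). JA and ethylene left it between 2.17 and 3.49. The membrane protein Solyc07g048070 differed by -7.93 and the glutathione S-transferase Solyc06g009040 by -7.37 from SA, and by -0.40 to 0.04 from JA and ethylene. In the other direction GAME1, a glycosyltransferase of tomatine synthesis, was at 9.85, 9.99 and 9.31 after BP178 and at 3.88, 4.79 and 4.45 after SA, 5.34 ± 0.25 (SE) higher. JA, ethylene and water left it between 8.86 and 10.10. The mean contrast of 2.12 for GAME1 thus came mainly from SA, the differences from JA and ethylene being 0.31 and 0.70. LOC101255250 was likewise 4.73 above SA. The steroid reductase det2, named after its values were seen, was 3.83 above SA and 1.51 below JA.

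Of 4 SA pathway genes found by symbol, 2 were lower than after SA, beside 1.89% of all probe sets, and 0 were called in the mean contrast. NIM1, the tomato NPR1, was 1.43 below SA, and its relative NML1 1.34 below SA, with mean contrasts of -0.37 and -0.56. NML2 was 0.85 below SA, which was not called, and 1.07 below ethylene, which was, and SAMT, a salicylate methyltransferase, differed from SA by -0.02. NIF1, a bZIP factor described from the study's lists, was 2.63 below SA and 1.35 ± 0.12 (SE) below the mean. Of 20 auxin response genes found by symbol 0 were called in the mean contrast, and 4 were higher after BP178 than after SA, beside 1.96% of all probe sets, namely IAA9 (1.36), PIN4 (1.86), IAA7 (1.28) and ARF4 (1.10). Of the 9 found by description, which are not independent evidence, 6 were lower in the mean contrast and 8 lower than after SA. Over all 770 described probe sets, 43.6% were lower in the mean contrast and 75.3% lower than after SA. The 6 included the GH3.8 enzyme Solyc02g064830 (-3.20 in the mean contrast) and the auxin efflux carrier Solyc02g082450 (-2.03).

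Against JA the proteinase inhibitors led. The proteinase inhibitor I Solyc09g084480 was at 2.93, 3.95 and 2.74 after BP178 and at 11.76, 11.73 and 11.56 after JA, a difference of -8.48 ± 0.25 (SE). SA and ethylene left it between 2.05 and 2.69. The water arrays were at 2.85, 2.53 and 6.27, water replicate 3 being far above the others, as it was for mcpi at 2.86, 3.12 and 7.17. By symbol 3 of 5 inhibitors were lower than after JA, the carboxypeptidase inhibitor mcpi by 7.40, cevi57 by 6.25 and PIIF by 3.33. Of 4 antifeedant enzymes 3 were lower than after JA, the arginase ARG2 by 4.89, the threonine deaminase Td by 3.47 and the leucine aminopeptidase lap2 by 3.36. Of 11 genes of jasmonate synthesis, 4 were lower than after JA, aos by 4.25, loxD by 3.03, opr3 by 2.02 and aoc by 1.62. Over all probe sets, 1.22% were lower than after JA. In the mean contrast only aos (-1.97 ± 0.21, SE) of the 11 was called. The aos transcript was also 2.40 below SA, while loxD and aoc were 1.45 and 1.66 above ethylene. On the opposite side, LOC101251407 was 4.08 and LOC101250059 3.76 above JA.

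Against ethylene the largest differences were in genes without a name. LOC101260130 was at 2.84, 3.25 and 3.09 after BP178 and at 10.55, 10.59 and 10.45 after ethylene, a difference of -7.47 ± 0.17 (SE). LOC101256490 and LOC101256767 were 7.09 and 6.53 lower. LOC101268660 and LOC543656 were 3.8 and 3.73 higher. MIOX, myo-inositol oxygenase, and PDH, proline dehydrogenase, both named after their values were seen, were raised by JA and ethylene and not by SA. MIOX averaged 2.18 after BP178 beside 2.07 in the SA, 8.73 in the JA and 7.41 in the ethylene group, and PDH averaged 6.62 beside 6.49, 10.20 and 11.08.

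Several defense genes lay between the hormones, so that the mean contrast hid them. The polyphenol oxidase Solyc08g074630, an enzyme that browns and hardens wounded tissue, was at 7.03, 7.89 and 7.10 after BP178, with a mean contrast of 0.13 ± 0.29 (SE). It was 1.53 above SA and 2.99 above ethylene and 4.14 below JA. The osmotin-like PR5 protein Solyc08g080660 was at 8.53, 7.32 and 6.96 after BP178, with a mean contrast of 0.00 ± 0.25 (SE), 2.98 above SA and 2.17 below ethylene, which was at 9.78, 9.88 and 9.64. The blue copper protein Solyc03g116700 was 1.43 below SA and 1.09 and 2.1 above JA and ethylene.

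Of 3 PR genes with a symbol, 0 were called in the mean contrast. PR1b1, a PR1 protein used as a marker of the SA pathway, was at 3.58, 3.78 and 3.42 after BP178, at 2.69, 3.68 and 2.82 after SA and at 2.56, 1.92 and 2.18 after water. Its mean contrast of 0.85 ± 0.21 (SE) was short of the minimum difference, and the group means of PR-P2 and P4 stayed under 2.3. The 8 PR1, PR2 and PR5 proteins found by description also had 0 calls in the mean contrast, but all 8 were called against SA, 5 higher and 3 lower. Of the 770 described probe sets, which the study chose from these arrays, 5.58% were higher and 75.3% lower than after SA. The calls of the 8 against SA are therefore not independent evidence. Of 3 chitinases, CHI17 was 1.10 ± 0.12 (SE) below the hormone mean, by 2.75 below SA and 0.67 below JA, and CHI3 was 0.86 below it at a high level of 11.05, 11.33 and 11.16. These CHI3 values after BP178 lay above water, at 9.24, 7.91 and 10.42. CHI9 was 1.32 above SA and averaged -0.12. None of the genes found by symbol was called in the mean contrast among 4 peroxidases, 3 lipid-transfer proteins, 3 receptor-like kinases, 3 genes of abscisic acid and dehydration, 2 MYB factors or 2 photosynthesis genes.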

How the data were processed

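Values come from GeneChip Tomato Gene ST arrays hybridized with leaf RNA. The authors background-corrected, normalized and summarized probe intensities by RMA in Expression Console (version not given in the sources used here) and deposited log2 values, which run from 0.956 to 13.85. RMA sets all arrays to a common distribution, so a shift of most transcripts would not be seen.

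A linear model of the 12 arrays was made with limma 3.58.1 (R 4.3.3), with a mean per group, 8 residual degrees of freedom and a constant prior. BP178 was contrasted with the hormone mean and with each hormone, and p values were adjusted by Benjamini-Hochberg over all 67795 probe sets. For the test against all 3 hormones, the largest of the 3 p values was used where the signs agreed. The fit was tested on simulated data.

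Gene symbols were taken from the array annotation: 23194 probe sets have a single symbol, 170 have more than that and 44431 carry no symbol there. Descriptions of 770 probe sets came from the annotation column of the study's supplementary lists (all rows for BP178 and flg15, the first 573 for SA). The fold changes and p values of those lists were not used. Gene lists were matched by symbol and by words of the descriptions, which can catch a gene of another role.

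Named genes are the 10 largest differences in each direction without overlap, the 10 largest on each side past the test against all 3 hormones, the 3 largest of each pairwise difference, up to 4 called genes of each list, and the RT-qPCR genes that match 1 probe set. Other list members, and genes said to be so, were named after their values were seen. The comparison, the members and the lists were chosen with earlier results of these data known. Scan dates were not used here, so batches within the experiment were not tested. Coordinates and sequences are not given.

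Alternatives tried were quantile normalization, median centring, the dimmest 25% left out, all 21 or 15 arrays in the fit, a trended robust prior, array weights, a replicate block, an adjusted p below 0.01, no minimum difference, each array or hormone left out, and each pair of groups fitted alone.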

Additional observations from a re-analysis of the deposited data

Results flagged for a closer look

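Among 120 named genes, 9 were called above 1 hormone and below another, as were 171 of all probe sets. They were noted because the sign of the difference then depends on which hormone BP178 is set against. The test given is the moderated F test among the 3 hormones in limma. The BP178 mean lay within 1 log2 unit of water for Solyc08g074630 (7.34 beside 7.46) and ARG2 (4.8 beside 5.38). The same held for Solyc12g009220 (6.32 beside 5.76) and Solyc01g105920 (6.11 beside 5.77). For the rest of the 9, it was more than 1 above water. JA was above and ethylene below BP178 for the polyphenol oxidases Solyc08g074630 (adjusted p = 3.92e-08) and LOC101258176 (1.22e-08) and for the arginase ARG2 (5.73e-09). The other polyphenol oxidase, LOC101258176, was at 5.95, 5.72 and 5.30 after BP178, at 7.36, 7.30 and 8.26 after JA, between 2.53 and 2.93 after SA and ethylene, and at 2.93, 2.50 and 3.04 after water. SA and JA were both above and ethylene below BP178 for the JAZ repressor Solyc12g009220 (adjusted p = 8.42e-10), the glutathione S-transferase-like protein Solyc07g056480 (4.14e-08) and the ocimene synthase Solyc01g105920 (8.24e-09). The JAZ transcript was at 6.37, 6.36 and 6.24 after BP178, 4.26 below JA and 1.81 above ethylene. SA was above and JA and ethylene below BP178 for the blue copper protein Solyc03g116700 (adjusted p = 1.93e-06) and the aspartic proteinase Solyc08g068870 (2.26e-07), which was at 7.92, 8.40 and 8.03 after BP178 and at 3.56, 3.57 and 5.02 after JA. For the osmotin-like Solyc08g080660 (adjusted p = 1.92e-07) SA was below and ethylene above BP178. Groups of 3 arrays are too small for a test of outlying arrays.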

How the results depend on the processing

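The mean contrast gave 1003 to 1119 calls when each array was left out in turn, the SA comparison 2395 to 2637, JA 1713 to 2023, ethylene 829 to 1016 and the F test 7555 to 10145. The test against all 3 hormones ranged from 33 to 66 in this way, and from 58 to 94 under the other normalizations, filters, priors, weights, sample sets and the block. An adjusted p below 0.01 left 31 probe sets outside all 3 hormones and 6155 in the F test. Without a minimum difference the calls were 3775 for the mean contrast, 5925 for SA, 4573 for JA and 2004 for ethylene, and the share higher in the mean contrast rose from 43.1% to 59.9%. Leaving ethylene out of the hormone mean gave 1782 calls. Without ethylene replicate 3, 35.0% of the ethylene calls were higher, against 47.7% with it. With a replicate block the counts were 1083 for the mean contrast, 2600, 1832 and 951 for SA, JA and ethylene, 58 for all 3 hormones and 9125 for the F test. Of 18 same-numbered pairs of arrays, 6 had correlated deviations over 0.1 (range -0.281 to 0.183). Differently numbered pairs were not compared, so whether replicate numbers pair arrays was not settled. Named genes called in the mean contrast kept their direction under all alternatives except leaving a hormone out of the mean. Solyc08g074630 and Solyc08g080660, near 0 and not called, have no settled direction. Without SA the mean contrast turned to 0.04 for Solyc09g011540, 0.06 for Solyc02g071350, 0.37 for Solyc12g014010, 0.16 for Solyc02g021220, 0.09 for Solyc07g008140 and -1.49 for Solyc08g080660. Without JA it turned to 0.83 for Solyc09g084480, 0.40 for LOC543570, 0.12 for Solyc03g098720, 0.39 for cevi57 and 0.90 for ARG2. Without ethylene it turned to -1.30 for Solyc08g074630 and 0.19 for LOC101256490. Leaving SA out of the mean ended the call of 41 of the 112 named genes called, leaving out JA that of 12 and leaving out ethylene that of 8. Calls of ACS6, ARG2, LOC101251407, Solyc12g087920, Solyc02g070890, Solyc10g011930, hsc70, Solyc01g104400 and Solyc01g105920 were lost without at least 1 BP178 array, and that of Solyc07g008140 without SA or JA replicate 2.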
